A study of Mus musculus with 6 samples.

Results

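The C-type lectin receptors and Fc gamma receptors of murine macrophages were examined through 10 genes, *Clec4e*, *Clec4d*, *Clec4n*, *Clec5a*, *Clec7a*, *Fcgr1*, *Fcgr2b*, *Fcgr3*, *Fcgr4* and *Fcer1g*. They were taken as the non-control array features that carry one of these gene names, whatever their signal. The gene names themselves were chosen with earlier results of these data known. All 10 genes were present among 34787 gene names tested, on 19 of 59305 array features. Each gene had 1 probe, printed on 1 spot for 9 of the genes and on 10 spots for *Fcgr2b*. In the mm9 positions of the file headers, the probes of the 5 lectin receptor genes lay on chromosome 6, those of *Fcgr2b*, *Fcgr3*, *Fcgr4* and *Fcer1g* on chromosome 1, and that of *Fcgr1* on chromosome 3. The *Clec4e* probe lay at chr6:123232878-123232937 and the *Fcgr2b* probe at chr1:172890988-172891047, both on the minus strand.

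Bone marrow–derived macrophages (BMDMs) came from female wild-type C57BL/6 mice in the labels (C57BL6/J in the paper), 6 to 8 weeks of age in the labels and older in the paper, and were grown for 7 days in medium conditioned by L929 fibroblasts. There were 3 groups with 2 arrays each, from independent experiments: untreated cells, cells given the TLR4 ligand lipopolysaccharide (LPS) for 4 h, and cells given the USP7 inhibitor HBX41,108 at 10 µM from 30 min before the same LPS stimulus (LPS+inhibitor). The LPS dose is 100 ng/ml in the series record and the paper but 100 ng/µl in the treatment protocol. Neither the labels nor the paper name a solvent control, so effects of the inhibitor and of its solvent cannot be told apart. The conditioned medium used for growth carries other secreted factors besides the macrophage growth factor, and according to the paper the grown cells were moved to medium without it and left overnight before an experiment.

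RNA (200 ng per sample) was labeled with Cy3 and hybridized to 1-color Agilent arrays, all on 1 slide read in 1 scan. Each group occupied its own position along the slide, so position and treatment cannot be told apart. Replicate 1 of every group lay on one side of the slide and replicate 2 on the other, so replicate number and side cannot be told apart either. Between 25002 and 27467 of the 59305 features per array were well above background, and 0 were saturated. The 75th percentile of signal was 325 and 458 on the untreated arrays, 241 and 288 on the LPS arrays, and 233 and 268 on the LPS+inhibitor arrays. Levels below are log2 signals after quantile normalization, given for replicate 1 and then replicate 2, and a difference is one group mean minus another on that scale. A gene is said to rise or fall where the limma p value, adjusted over 55680 probes, was under 0.05. With 2 arrays against 2, the smallest two-sided p of an exact permutation test is 0.333, so such a test could not reach that threshold, and the number of arrays limits the precision of every value. Where a probe was well above background on neither array of a group, its fold is given only as a bound, computed against the dimmest signal scored as well above background on each of those arrays, or against the probe's own signal where that was higher. Such a bound holds for the quantile-normalized signals only, and differences under other processing are given beside it.

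C-type lectin receptors recognize carbohydrates and glycolipids of microbes and damaged cells, whereas Fc gamma receptors bind the constant region of IgG in immune complexes. Activating Fc gamma receptors and some of the lectin receptors of macrophages signal through the FcRγ chain encoded by *Fcer1g*. The tyrosine motif of this chain recruits the kinase SYK and, through CARD9, leads to NF-kB. FcγRIIB, the product of *Fcgr2b*, carries an inhibitory motif instead and recruits the phosphatase SHIP1.

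The LPS and macrophage labels were first checked against marker genes. *Tnf* was at 9.43 and 9.14 on untreated arrays, 16.89 and 16.90 on LPS arrays, and 16.14 and 16.10 on LPS+inhibitor arrays. *Il6* was at 5.44 and 4.54, 16.71 and 16.97, and 13.63 and 14.95 in the same order. Both cytokine genes rose with LPS, *Tnf* by 7.61 (SE 0.12, adjusted p = 0.00152) and *Il6* by 11.86 (SE 0.57, adjusted p = 0.00326). Against LPS alone, *Tnf* fell by 0.78 with LPS+inhibitor (SE 0.12, adjusted p = 0.0382), and the *Il6* difference was -2.55 (SE 0.57, adjusted p = 0.0831). The *Tnf* call was lost whichever of the 6 arrays was left out (adjusted p from 0.0611 to 0.138), with the deposited log2 values (0.0508), in a fit of the 2 groups compared (0.0611) and with the replicate number as a block (0.0587), and the *Il6* difference passed with normexp, a model-based background correction (adjusted p = 0.00843), with the log2 values deposited by the authors (0.0278) and with probes left out that were dim in every group (0.0196), within 0.00843 to 0.246 over all alternatives. *Usp7*, the gene of the inhibitor's target, was at 11.95 and 11.98, 12.41 and 12.40, and 12.11 and 12.43, and its difference from LPS was -0.14 (SE 0.13, adjusted p = 0.627), of the opposite sign (0.026) without LPS+inhibitor replicate 1. The *Usp7* difference between LPS and untreated cells was 0.44 (adjusted p = 0.104), from 0.17 to 0.80 over all alternatives. It passed the threshold with 75th percentile scaling (adjusted p = 0.0211), with normexp background correction (0.0269) and in a fit of the 2 groups compared (0.0286). Fits without an LPS+inhibitor array repeat that last fit.

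All 6 macrophage markers were well above background on all 6 arrays. The probe with the brightest signal was that of *Csf1r*, the receptor of the macrophage growth factor, at 18.05 and 17.80 on untreated arrays, 17.67 and 17.64 on LPS arrays, and 17.56 and 17.31 on LPS+inhibitor arrays. The summed signal of the macrophage list was 719012 and 714237, 712283 and 739085, and 624667 and 583863 in that order. Probes differ in affinity, so signals are compared between arrays and do not rank the amounts of different genes, here and in the lists that follow. The LPS co-receptor gene *Cd14* rose with LPS by 1.69 (SE 0.12, adjusted p = 0.00518) and was lower by -1.31 with LPS+inhibitor than with LPS (SE 0.12, adjusted p = 0.0184), a call lost without either untreated array (adjusted p = 0.0658 each) or either LPS array (adjusted p = 0.0721 and 0.0720). The integrin gene *Itgam* fell by 0.66 with LPS (SE 0.10, adjusted p = 0.0233), a call lost without either untreated array (adjusted p = 0.0989 and 0.118) or either LPS array (adjusted p = 0.103 and 0.0809), with 75th percentile scaling (-0.22, adjusted p = 0.100) and with the mean of the gene's probes (-0.38, adjusted p = 0.0553).

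Markers of other cells that marrow cultures can hold were counted by the arrays on which they were above background. Of 8 neutrophil markers, 6 were above background on some array, with *Elane* the brightest (mean log2 signal 11.57) and *Retnlg* and *Cxcr2* above background on none. *Camp* was higher on replicate 2 of each group, at 4.91 and 6.05 (untreated), 6.68 and 8.40 (LPS), and 4.95 and 6.70 (LPS+inhibitor). *Mpo* was higher on replicate 1, at 8.39 and 6.45, 8.65 and 6.67, and 6.49 and 4.84 in that order. Whether such shifts come from shared cultures or from the side of the slide was not tested. Of 5 dendritic cell markers, 2 were above background, *Siglech* at a mean of 15.10 and *Zbtb46*, while *Flt3*, *Cd209a* and *Xcr1* were above it on none. The summed signal of the dendritic cell list was 45046 and 38057 on untreated arrays, 25336 and 24858 on LPS arrays, and 51411 and 34660 on LPS+inhibitor arrays, and *Clec7a* and *Clec4n* also had their lowest values on the LPS arrays. Whether these cells had a part in those values was not tested. That sum is nearly all *Siglech*, whose difference was -0.73 between LPS and untreated cells (adjusted p = 0.122) and 0.75 between LPS+inhibitor and LPS (adjusted p = 0.149), and whose sign turned in both when all probes of the gene were averaged (0.19 and -0.51). The first *Siglech* difference passed the threshold with normexp background correction (adjusted p = 0.0326), with dim probes left out (0.0448) and in a fit of the 2 groups compared (0.0478). Fits without an LPS+inhibitor array repeat that last fit. The second *Siglech* difference passed with normexp background correction (0.0302). *Zbtb46*, a dendritic cell transcription factor gene, was at 3.93 and 3.95 on the untreated arrays, on neither well above background, and was at least 5.65-fold higher with LPS (adjusted p = 0.00435). The log2 difference was smaller with normexp background correction (0.90) and the deposited log2 values (1.73), and the call held in all 16 alternatives.

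The lymphocyte, mast cell, fibroblast and erythroid lists were read in the same way, each with the mean log2 signal of its brightest gene. Above background on some array were 2 of 3 T cell markers (*Cd3e* brightest, 9.31; *Cd3g* on none), 5 of 5 B cell markers (*Cd79b*, 8.85), 2 of 3 NK cell markers (*Ncr1*, 4.68; *Eomes* on none) and 4 of 5 mast cell or basophil markers (*Kit*, 5.74; *Fcer1a* on none). The same held for 2 of 4 fibroblast markers (*Dcn*, 4.97, with *Col1a1* and *Pdgfra* on none) and 2 of 3 erythroid markers (*Hba-a1*, 4.10). The summed signal of the B cell list was higher on replicate 1 of each group (1057 and 668 untreated, 1153 and 533 with LPS, 715 and 315 with LPS+inhibitor). Among these 6 lists, the only call in LPS against untreated or LPS+inhibitor against LPS was *Pax5*, a B cell transcription factor gene. Its level was 4.03 and 3.90 on the LPS arrays, on neither well above background, and it was at least 1.39-fold higher with LPS+inhibitor than with LPS (adjusted p = 0.0244; log2 difference 0.35 with normexp background correction). That call was lost whichever array was left out (adjusted p from 0.0537 to 0.0872), with a prior for the spread that follows the signal (0.187), in a fit of the 2 groups compared (0.0732) and with the replicate block (0.0537). In these bulk cultures, fewer cells of a type and less RNA per cell cannot be told apart.

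With LPS, *Clec4e*, *Clec4d*, *Clec5a* and *Fcgr2b* rose and *Clec7a* fell. The 4 of 10 genes that rose stand against 7.98% of all gene names, and the 1 that fell against 12.8%. The share that rose was above that of all genes and the share that fell was not. Because the genes were chosen with earlier results of these data known, these shares are no test of an excess. With dim probes left out, 5 of the 10 genes rose and 1 fell, where 3156 and 5198 of 18347 names did. The median difference was 0.44 over the 10 genes and 0.0016 over all 34787 names. The comparison asks how the receptors respond to TLR4 stimulation. When any 1 of the untreated or LPS arrays was left out, 2 of the genes rose, and when it was an untreated array, 0 fell. The names that rose then numbered 1140 to 2115 and those that fell 1641 to 2584, against 2775 and 4443 as reported, so the loss of calls was not particular to these genes. Of the 10 genes, 6 had an unadjusted p under 0.05, as did 11506 of all 34787 names.

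With LPS+inhibitor against LPS alone, which asks what adding the inhibitor with its solvent changes in stimulated cells, *Clec7a* rose and *Fcgr1* and *Fcgr2b* fell. The 1 gene that rose stands against 5.52% of all names and the 2 that fell against 4.27%. One gene in 10 is near the share for all genes, and the count that fell, although above it, rests on 2 genes. The median difference was -0.57 over the 10 genes and 0.00091 over all names, and 9 of the 10 genes had an unadjusted p under 0.05 (9049 of all names). Other processing of all 6 arrays could add calls. Of the 10 genes, 4 fell and 1 rose under 75th percentile scaling, and 4 fell and 2 rose in the deposited log2 values. Normexp background correction gave 5 that fell and 3 that rose, where 2373 and 2886 of all names did. Removing dim probes gave 5 and 2, where 2362 and 2780 of 18347 names did. Fits of fewer arrays or groups kept or lowered the reported counts. Without untreated replicate 1 or untreated replicate 2, limma called 0 of 34786 and 0 of 34787 names, members included, with 8007 and 7998 at an unadjusted p under 0.05. A fit of these 2 groups alone also called 0 names, with 8004 at an unadjusted p under 0.05. A lone untreated array adds nothing to the estimate of the spread. The fits without an untreated array therefore repeat the fit of these 2 groups and are not separate checks. Leaving out LPS replicate 1 or 2 left 0 of the 10 genes called in limma in each direction (8 and 9 of them at an unadjusted p under 0.05), while 526 and 541 of all names rose and 796 and 703 fell. Without LPS+inhibitor replicate 1, 1161 names rose and 590 fell, 1 and 1 of the 10 genes among them, and without LPS+inhibitor replicate 2, 1898 and 1193, with 1 and 2 of the 10.

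Against untreated cells, LPS+inhibitor cells had higher *Clec4e*, *Clec4d* and *Clec5a* and lower *Fcgr1*. The 3 genes that rose stand against 6.16% of all names and the 1 that fell against 8.71%, and the median difference was 0.08 over the 10 genes and -0.0021 over all names. Without untreated replicate 2 the count that rose was 1, and without untreated replicate 1 or LPS+inhibitor replicate 2 it was 2 (479, 626 and 1871 of all names in that order, against 2144 as reported), whereas the call of *Fcgr1* was lost whichever array was left out. The 3 comparisons share arrays pairwise, LPS arrays between the first pair and untreated arrays between the LPS and LPS+inhibitor contrasts, so they are not independent of each other.

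By kind of receptor, 3 of 5 lectin receptor genes rose and 1 fell with LPS (median 0.55), and 1 of the 5 Fc receptor and chain genes rose (median 0.34). In LPS+inhibitor against LPS, 1 lectin receptor gene rose and 0 fell (median 0.36), and 0 Fc receptor and chain genes rose and 2 fell (median -1.57). Whether the kinds differ was not tested. When each array was scaled to its 75th percentile in place of quantile normalization, the median of all names moved to 0.40 in LPS against untreated and to 0.43 in LPS+inhibitor against untreated. Under that scaling 12092 names rose and 4054 fell with LPS, against 2775 and 4443 with quantile normalization, and 12134 rose and 3359 fell in LPS+inhibitor against untreated, against 2144 and 3031. Relative to those medians, the differences with LPS were 6.02 for *Clec4e*, 2.49 for *Fcgr2b* and -0.54 for *Clec7a*, and 7 of the 10 genes rose and 0 fell by the unshifted test.

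**Figure D1:**
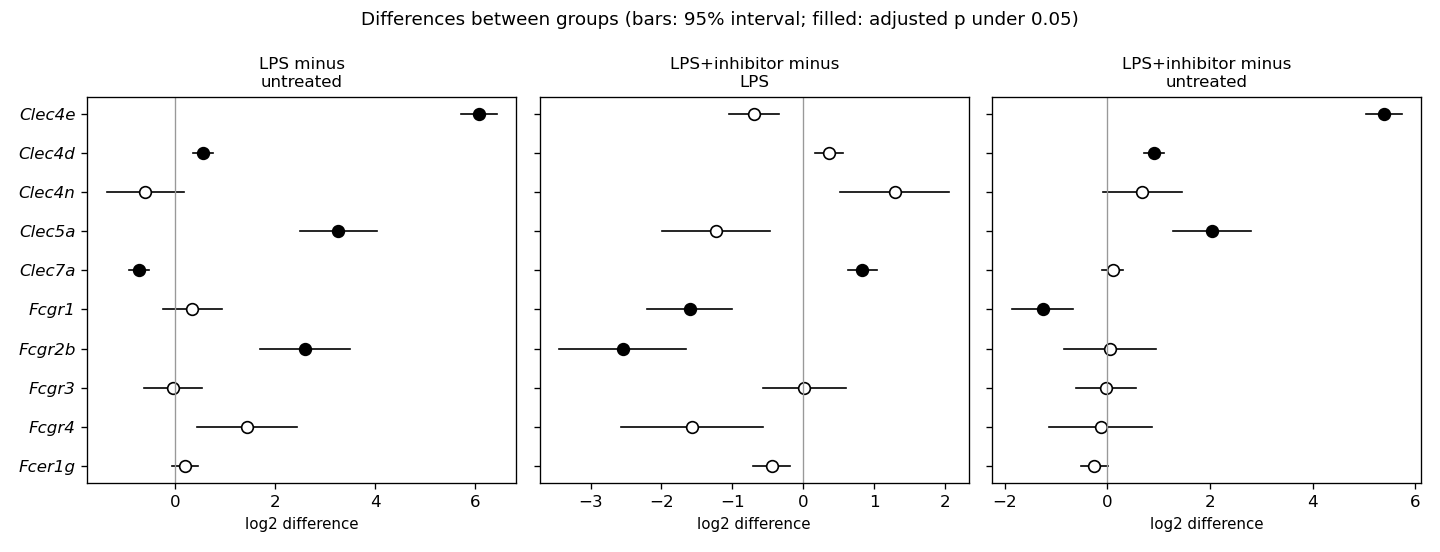
Log2 differences between group means (x axis) for the 10 receptor genes (y axis) in the 3 comparisons, with 95% intervals as bars and filled circles for an adjusted p under 0.05. *Clec4e* stands farthest right with LPS (6.08), and *Fcgr2b* lies at 2.60 with LPS, at -2.55 in LPS+inhibitor against LPS and at 0.055 against untreated cells, the last of opposite sign (-0.36) without LPS+inhibitor replicate 2.

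Promoter windows of 250 bases before to 50 bases after the start site, taken from RefSeq (build GRCm38.p6), were at hand for 9 of the 10 genes in 11 windows, and *Clec4n* had none. Windows are shown 5′ to 3′ for *Clec4e* and *Fcgr2b*, which rose with LPS, and for *Fcgr1* and *Fcgr4*, Fc receptor genes that shared with *Fcgr2b* LPS+inhibitor arrays below both LPS arrays. They lie at chr6:123289822-123290121 (minus strand) for *Clec4e*, chr1:170976022-170976321 (minus strand) for *Fcgr2b*, chr3:96293920-96294219 (minus strand) for *Fcgr1* and chr1:171018676-171018975 (plus strand) for *Fcgr4*. Capitals mark matches, on either strand, to the NF-kB consensus, TTCNNNGAA (the core bound by STAT factors), GAAANNGAA (part of interferon response elements), GAGGAAGT (the PU.1 core) or TTNNGCAA (the C/EBP core).
Clec4e: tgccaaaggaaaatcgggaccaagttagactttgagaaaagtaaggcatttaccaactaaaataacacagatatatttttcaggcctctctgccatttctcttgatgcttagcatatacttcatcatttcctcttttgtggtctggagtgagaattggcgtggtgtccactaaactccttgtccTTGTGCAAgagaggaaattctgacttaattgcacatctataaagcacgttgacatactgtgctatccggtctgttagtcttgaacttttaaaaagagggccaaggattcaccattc
Fcgr2b: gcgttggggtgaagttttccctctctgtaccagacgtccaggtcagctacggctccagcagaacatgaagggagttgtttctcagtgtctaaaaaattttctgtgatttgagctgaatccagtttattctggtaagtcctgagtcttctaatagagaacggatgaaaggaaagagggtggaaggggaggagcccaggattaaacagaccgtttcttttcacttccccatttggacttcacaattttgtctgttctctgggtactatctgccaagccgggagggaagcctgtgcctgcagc
Fcgr1: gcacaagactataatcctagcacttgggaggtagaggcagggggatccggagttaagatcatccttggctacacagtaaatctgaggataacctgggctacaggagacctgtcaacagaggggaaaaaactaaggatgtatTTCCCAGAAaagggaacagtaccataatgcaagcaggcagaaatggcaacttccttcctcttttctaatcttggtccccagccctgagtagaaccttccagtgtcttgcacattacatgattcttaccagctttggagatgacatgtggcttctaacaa
Fcgr4: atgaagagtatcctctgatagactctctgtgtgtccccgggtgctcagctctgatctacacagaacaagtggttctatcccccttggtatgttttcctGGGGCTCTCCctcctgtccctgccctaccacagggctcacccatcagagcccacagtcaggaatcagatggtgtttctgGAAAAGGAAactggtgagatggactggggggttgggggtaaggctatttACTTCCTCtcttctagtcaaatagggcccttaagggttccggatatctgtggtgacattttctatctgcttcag

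In the *Clec4e* window the match was TTNNGCAA, with its first base at position -66 from the start site, and in the *Fcgr1* window TTCNNNGAA, at -109. The *Fcgr4* window held the NF-kB consensus at -152, GAAANNGAA at -73, and GAGGAAGT, read on the strand opposite to the one printed, at -24. The *Fcgr2b* window held none of the 5 patterns, nor did those of *Clec5a*, *Clec7a* and *Fcer1g*. Among windows not shown, that of *Clec4d* held GAAANNGAA on its opposite strand, and both windows of *Fcgr3*, which overlap almost fully, held the NF-kB consensus and TTNNGCAA. Over all 32851 promoters, 8.46% held the NF-kB consensus, 8.3% TTCNNNGAA, 8.56% GAAANNGAA, 3.2% GAGGAAGT and 10.8% TTNNGCAA, and of the 11 windows here 3, 1, 2, 1 and 3 did. In the first and last of these counts, 1 site of *Fcgr3* is counted in both of its windows. None of the matches in these windows overlapped another, and a match describes letters in the sequence and not a bound site.

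Among the lectin receptors, *Clec4e* encodes Mincle, which binds mycobacterial cord factor and signals through the FcRγ chain, and its window with the C/EBP core is printed above. It was at 10.66 and 10.79 on untreated arrays, 16.83 and 16.79 on LPS arrays, and 15.96 and 16.26 on LPS+inhibitor arrays. The arrays of the 3 groups did not overlap, with LPS highest and untreated far lowest. *Clec4e* rose by 6.08 with LPS (SE 0.13, 67.8-fold, adjusted p = 0.00200) and by 5.38 in LPS+inhibitor against untreated cells (SE 0.13, 41.7-fold, adjusted p = 0.00384), in both replicates each time. Both calls held in all 16 alternative settings of the analysis. Between LPS+inhibitor and LPS the difference was -0.70 (SE 0.13, 95% interval -1.05 to -0.35), which missed the threshold (adjusted p = 0.0556) and passed it without LPS+inhibitor replicate 2 (-0.85, adjusted p = 0.0413). It also passed with normexp background correction (adjusted p = 0.0167), dim probes left out (0.0251), a prior for the spread that follows the signal (0.0423) and the mean of probes per gene (0.0473). In 11 of the 16 alternatives it missed the threshold, as reported. With 1 probe, the mean of probes left the difference unchanged and altered only the spread prior and adjustment shared with other genes.

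*Clec4d*, next to *Clec4e* on chromosome 6, encodes MCL, a partner of Mincle. Its level was 16.08 and 15.98 on untreated arrays, 16.55 and 16.60 on LPS arrays, and 16.90 and 16.98 on LPS+inhibitor arrays. No array of one group reached into the range of another, and the order was untreated, LPS and LPS+inhibitor. It rose by 0.55 with LPS (SE 0.07, 1.46-fold, adjusted p = 0.0164) and by 0.91 in LPS+inhibitor against untreated cells (SE 0.07, 1.88-fold, adjusted p = 0.00905), and the step of 0.36 from LPS to LPS+inhibitor did not pass (SE 0.07, adjusted p = 0.0676; 0.0419 with normexp background correction, within 0.0419 to 0.568 over all alternatives). The call with LPS was lost without untreated replicate 1 (adjusted p = 0.0608), untreated replicate 2 (0.0846), LPS replicate 1 (0.0647) or LPS replicate 2 (0.0680), and with the log2 values of the deposited table (0.0748), in a range of 0.00341 to 0.0846 over all alternatives. The call against untreated cells was lost without untreated replicate 2 (adjusted p = 0.0565).

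*Clec5a* encodes MDL-1, which pairs with the adaptor DAP12 (*Tyrobp*). Its probe was at 3.62 and 3.63 in untreated cells, on neither array well above background, at 6.65 and 7.14 with LPS, and at 5.37 and 5.96 with LPS+inhibitor. The LPS arrays were above the LPS+inhibitor arrays, and both were above the untreated ones. *Clec5a* was at least 7.91-fold higher with LPS than untreated (adjusted p = 0.00660), a call that held in all 16 alternatives, and at least 3.37-fold higher with LPS+inhibitor than untreated (adjusted p = 0.0224). With normexp background correction the 2 log2 differences were 1.17 and 0.58, and with the deposited log2 values 2.01 and 1.11, each short of the fold bound just given. The latter call was lost without untreated replicate 1 (adjusted p = 0.109), untreated replicate 2 (0.110) or LPS+inhibitor replicate 2 (0.0589). Between LPS+inhibitor and LPS the difference was -1.23 (SE 0.28, adjusted p = 0.0838), which passed with normexp background correction (-0.60, adjusted p = 0.0140), with the deposited log2 values (0.0439) and with dim probes left out (0.0235), within 0.0140 to 0.223 over all alternatives.

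*Clec7a* encodes Dectin-1, the receptor for fungal beta-glucan, which carries its own tyrosine motif. The level was 15.46 and 15.47 on untreated arrays, 14.70 and 14.78 on LPS arrays, and 15.64 and 15.51 on LPS+inhibitor arrays. Both LPS arrays lay below all 4 others, and the LPS+inhibitor arrays lay just above the untreated ones. *Clec7a* fell by 0.73 with LPS (SE 0.07, adjusted p = 0.00937) and was 0.84 higher with LPS+inhibitor than with LPS (SE 0.07, 1.79-fold, adjusted p = 0.0173), and the difference between LPS+inhibitor and untreated cells was 0.11 (SE 0.07, adjusted p = 0.537; 0.51 and adjusted p = 0.0122 with 75th percentile scaling, within 0.0122 to 0.850 over all alternatives). With 75th percentile scaling the fall with LPS was -0.14 and no longer passed (adjusted p = 0.276; 0.00105 to 0.276 over all alternatives). Without untreated replicate 1 or 2 the fall was not called either (adjusted p = 0.0570 and 0.0622), and the rise with LPS+inhibitor was lost without untreated replicate 1 or 2 (adjusted p = 0.0672 each), LPS replicate 1 (0.0628) or LPS replicate 2 (0.0546).

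*Clec4n* encodes Dectin-2, a receptor for fungal mannans. Its level was 13.00 and 13.45 on untreated arrays, 12.35 and 12.89 on LPS arrays, and 13.75 and 14.07 on LPS+inhibitor arrays. The groups did not overlap, with LPS lowest and LPS+inhibitor highest, and replicate 1 minus replicate 2 was -0.46, -0.55 and -0.32 in untreated, LPS and LPS+inhibitor cells. The differences were -0.60 (SE 0.28, adjusted p = 0.278) with LPS, 1.29 (SE 0.28, adjusted p = 0.0780) for LPS+inhibitor against LPS, and 0.69 (SE 0.28, adjusted p = 0.244) against untreated cells, and none passed the threshold as reported. Over the left-out arrays they ranged from -0.88 to -0.33, from 1.02 to 1.56 and from 0.46 to 0.91 in that order. The second passed with normexp background correction (adjusted p = 0.0116), with the deposited log2 values (0.0451) and with dim probes left out (0.0212), within 0.0116 to 0.214 over all alternatives. All 3 passed with the replicate number as a block (adjusted p = 0.0373, 0.0367 and 0.0371).

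**Figure D2:**
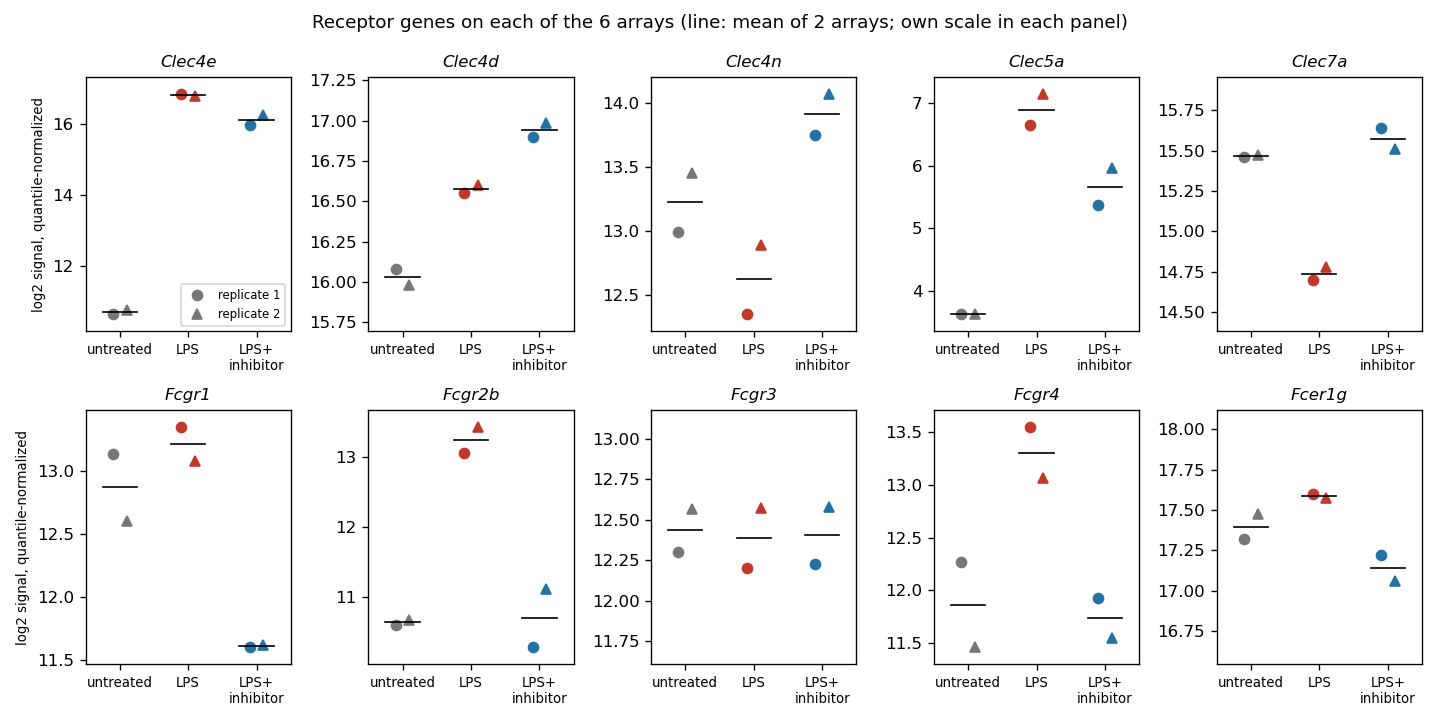
Log2 signal after quantile normalization (y axis, its own scale in each panel) of the 10 receptor genes on each array of the 3 groups (x axis), with circles for replicate 1, triangles for replicate 2 and a line at the mean of 2 arrays. *Clec4e* lies between 10.66 and 10.79 in untreated cells and between 15.96 and 16.83 in both LPS-treated groups, whereas *Fcgr2b* has its highest arrays in the LPS group, at 13.05 and 13.42.

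*Fcgr1*, *Fcgr3* and *Fcgr4* encode the activating receptors for IgG, FcγRI, FcγRIII and FcγRIV, of which FcγRI binds monomeric IgG with high affinity. *Fcgr1* was at 13.14 and 12.60 on untreated arrays, 13.35 and 13.08 on LPS arrays, and 11.60 and 11.62 on LPS+inhibitor arrays. Untreated and LPS arrays overlapped, and both LPS+inhibitor arrays were below all 4 others. The difference with LPS was 0.34 (SE 0.22, adjusted p = 0.448) and passed with 75th percentile scaling (0.80, adjusted p = 0.0322). It was 0.075 without untreated replicate 2 and 0.61 without untreated replicate 1. *Fcgr1* fell by 1.60 in LPS+inhibitor against LPS (SE 0.22, 3.04-fold, adjusted p = 0.0317) and by 1.26 against untreated cells (SE 0.22, 2.40-fold, adjusted p = 0.0374). Neither call held when any 1 of the 6 arrays was left out, with adjusted p from 0.0593 to 0.121 against LPS and from 0.0540 to 0.130 against untreated cells, and differences from -1.74 to -1.47 and from -1.53 to -0.99.

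*Fcgr4* was at 12.27 and 11.46 on untreated arrays, 13.55 and 13.06 on LPS arrays, and 11.93 and 11.54 on LPS+inhibitor arrays. Both LPS arrays were above all 4 others, and the untreated and LPS+inhibitor arrays overlapped. The differences were 1.44 with LPS (SE 0.36, 95% interval 0.44 to 2.44, adjusted p = 0.0752) and -1.57 for LPS+inhibitor against LPS (SE 0.36, 95% interval -2.57 to -0.57, adjusted p = 0.0888). Neither passed as reported, whereas both passed with 75th percentile scaling (adjusted p = 0.00999 and 0.0493), normexp background correction (0.0169 and 0.0190), the deposited log2 values (0.0421 and 0.0486), dim probes left out (0.0190 and 0.0232) and the replicate number as a block (0.0207 and 0.0404), within 0.00999 to 0.244 and 0.0190 to 0.265 over all alternatives. Against untreated cells the LPS+inhibitor difference was -0.13 (SE 0.36, adjusted p = 0.951), with the sign turned by 75th percentile scaling (0.037) and without untreated replicate 1 (0.28) or LPS+inhibitor replicate 2 (0.065).

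*Fcgr3* was at 12.30 and 12.57 on untreated arrays, 12.20 and 12.57 on LPS arrays, and 12.23 and 12.58 on LPS+inhibitor arrays. The groups overlapped throughout, and the replicates of each group were farther apart than the group means. Its 95% interval for LPS against untreated was -0.63 to 0.53 around -0.047, for LPS+inhibitor against LPS -0.56 to 0.60 around 0.017, and for LPS+inhibitor against untreated -0.61 to 0.55 around -0.030, each of the opposite sign with 75th percentile scaling (0.33, -0.14 and 0.19). The sign also turned without LPS replicate 1 (0.14 and -0.17 in the comparisons that use LPS arrays), without untreated replicate 2 (0.088 and 0.11 in those that use untreated arrays), without LPS+inhibitor replicate 1 (0.15 against untreated) and without LPS+inhibitor replicate 2 (-0.16 against LPS).

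*Fcgr2b* encodes the inhibitory receptor, and its window, which held none of the patterns searched, is printed above. Its level was 10.60 and 10.67 on untreated arrays, 13.05 and 13.42 on LPS arrays, and 10.28 and 11.11 on LPS+inhibitor arrays. Both LPS arrays were far above all 4 others, and the untreated arrays lay between the LPS+inhibitor arrays. *Fcgr2b* rose by 2.60 with LPS (SE 0.32, 6.07-fold, adjusted p = 0.0142) and fell by 2.55 in LPS+inhibitor against LPS (SE 0.32, 5.84-fold, adjusted p = 0.0288). The LPS+inhibitor difference from untreated cells was 0.055 (SE 0.32, 95% interval -0.84 to 0.95, adjusted p = 0.991), an interval that does not show equal levels, and it was -0.36 without LPS+inhibitor replicate 2. The rise was lost without untreated replicate 1 (adjusted p = 0.0794), untreated replicate 2 (0.0799), LPS replicate 1 (0.0597) or LPS replicate 2 (0.0682), and the fall without the same arrays (0.0909, 0.0909, 0.0948 and 0.106), with differences between 2.42 and 2.79 and between -2.96 and -2.13 over all 6 left-out arrays.

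*Fcer1g* encodes the FcRγ chain that Mincle, Dectin-2 and the activating Fc receptors share. Its level was 17.32 and 17.48 on untreated arrays, 17.60 and 17.58 on LPS arrays, and 17.22 and 17.06 on LPS+inhibitor arrays. The 3 groups did not overlap, with LPS highest and LPS+inhibitor lowest, over a range of under 1 log2 unit. The difference was 0.19 with LPS (SE 0.10, adjusted p = 0.323) and -0.44 for LPS+inhibitor against LPS (SE 0.10, adjusted p = 0.0780), and both passed with 75th percentile scaling (0.74, adjusted p = 0.00563, and -0.58, adjusted p = 0.0324, within 0.00563 to 0.788 and 0.0324 to 0.251 over all alternatives). Against untreated cells it was -0.25 with LPS+inhibitor (SE 0.10, adjusted p = 0.212), of opposite sign with 75th percentile scaling (0.16).

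**Figure D3:**
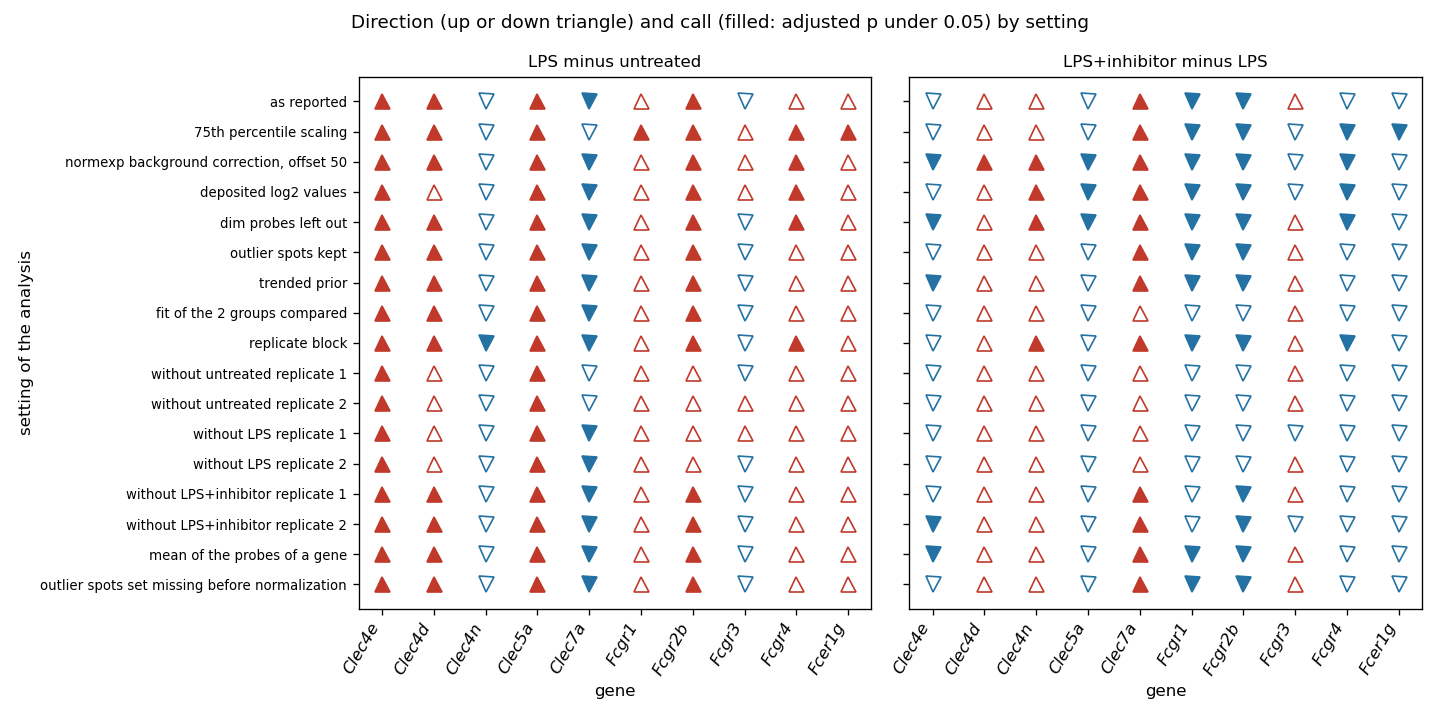
Direction (up or down triangle) and call (filled for an adjusted p under 0.05) of the 10 receptor genes (x axis) under the analysis as reported and 16 alternative settings (y axis), for LPS against untreated and for LPS+inhibitor against LPS. *Clec4e* and *Clec5a* are filled in every line of the LPS panel, and *Fcgr3* turns from a down to an up triangle with LPS under 5 of the settings, 75th percentile scaling among them (0.33).

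The genes around these receptors were followed in 6 lists of 104 genes in all, every one of them with a probe. Some were well above background on no array, most of these in the list of other C-type lectins. The counts and medians of the lists therefore include probes near the floor. With LPS, 15 of the 104 rose and 19 fell, with a median of -0.08, where 7.98% of all gene names rose and 12.8% fell, shares that also stand beside each list below. With 75th percentile scaling 25 of the 104 rose, where 12092 of 34787 names did, a share below that of all names rather than above it. With normexp background correction 29 fell, where 5314 of all names did. The counts per list below are for the analysis as reported. Of 19 kinases and adaptors that act next to the receptors, 8 rose and 5 fell (median 0.44). The adaptor SLP-76 gene *Lcp2* rose by 3.89 (SE 0.30, 14.8-fold, adjusted p = 0.00586), the kinase gene *Src* was at least 6.94-fold higher (adjusted p = 0.00491), having been above background on neither untreated array (log2 difference 1.08 with normexp background correction and 1.87 with the deposited log2 values, each short of that bound), and the kinase gene *Lyn* rose by 1.83 (SE 0.27, adjusted p = 0.0206). *Syk*, named after its values were seen because it is the kinase of the pathway, was at 14.18 and 14.08 on untreated arrays, 15.49 and 15.26 on LPS arrays, and 14.66 and 14.61 on LPS+inhibitor arrays, and rose by 1.24 with LPS (SE 0.10, adjusted p = 0.00627). The difference of *Tyrobp*, the DAP12 adaptor gene named for the same reason, was -0.47 (SE 0.19, adjusted p = 0.219), of opposite sign with 75th percentile scaling (0.13).

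Of 10 genes of the CARD9 and calcineurin branches, 2 rose and 2 fell with LPS (median -0.08). The paracaspase gene *Malt1* rose by 3.21 (SE 0.27, adjusted p = 0.00639), while the calcineurin-dependent transcription factor genes *Nfatc1* and *Nfatc2* fell by 3.0 (SE 0.14, adjusted p = 0.00324) and by 1.5 (SE 0.21, adjusted p = 0.0180). The *Nfatc1* difference ranged from -3.05 to -1.59 over all alternatives, and its call held in all 16. Of 15 inhibitory receptors and phosphatases, 0 rose and 3 fell (median -0.47). These were *Inpp5d*, which encodes the SHIP1 phosphatase that FcγRIIB recruits and fell by 2.14 (SE 0.08, adjusted p = 0.00280), the docking protein gene *Dok2*, which fell by 1.5 (SE 0.09, adjusted p = 0.00401), and the CD47 receptor gene *Sirpa*, which fell by 0.88 (SE 0.17, adjusted p = 0.0391).

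Among 33 other C-type lectin genes, 3 rose and 3 fell with LPS (median 0.02). The activation marker gene *Cd69* rose by 10.2 (SE 0.55, adjusted p = 0.00369), the oxidized-lipoprotein receptor gene *Olr1*, above background on neither untreated array, was at least 38.9-fold higher (adjusted p = 0.00152; log2 difference 3.40 with normexp background correction, short of that bound, and 5.38 with the deposited log2 values), and the thrombomodulin gene *Thbd* fell by 3.17 (SE 0.35, adjusted p = 0.0107). Of 12 other Fc receptor genes, 1 rose and 0 fell (median -0.05), the intracellular IgG receptor gene *Trim21* by 3.40 (SE 0.31, adjusted p = 0.00737). Of 15 further receptors that pair with these adaptors, 1 rose and 6 fell (median -0.45). The paired receptor gene *Pilrb1* rose by 2.09 (SE 0.14, adjusted p = 0.00465), and *Cd300lb* and the TREM-like gene *Treml1* fell by 4.74 (SE 0.23, adjusted p = 0.00331) and by 2.21 (SE 0.46, adjusted p = 0.0480).

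Of the 16 list genes named by rule for LPS, 11 calls held without untreated replicate 1, 11 without untreated replicate 2, 12 without LPS replicate 1, 13 without LPS replicate 2, and 15 without LPS+inhibitor replicate 1 or 2. The calls lost were those of *Lyn*, *Nfatc2*, *Sirpa*, *Thbd* and *Treml1*, with highest adjusted p of 0.106, 0.0925, 0.161, 0.0632 and 0.184, and the call of *Syk* held throughout (up to 0.0468). That of *Sirpa* was also lost with 75th percentile scaling (-0.30, adjusted p = 0.125) and in a fit of the 2 groups compared (0.0594), and that of *Nfatc2* with the mean of the gene's probes (-0.85, adjusted p = 0.0571). The count of list genes that rose was 8 to 13 over the 6 left-out arrays, and that of genes that fell 4 to 18.

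With LPS+inhibitor against LPS, 8 of the 104 list genes rose and 11 fell (median -0.12), where 5.52% of all gene names rose and 4.27% fell. With normexp background correction 17 rose and 19 fell, where 2886 and 2373 of 34787 names did. With dim probes left out 15 rose and 16 fell, where 2780 and 2362 of 18347 names did. As reported, the kinase and adaptor list held most of those that fell, 7 of 19, with 3 that rose (median -0.69). In that list *Lcp2* fell by 2.38 (SE 0.30, adjusted p = 0.0288), the exchange factor gene *Vav3* by 1.69 (SE 0.22, adjusted p = 0.0298), the lipid kinase gene *Pik3cd* by 1.69 (SE 0.16, adjusted p = 0.0184) and *Syk* by 0.74 (SE 0.10, adjusted p = 0.0324), whereas *Tyrobp* differed by 0.062 (SE 0.19, adjusted p = 0.935), with the sign turned by 75th percentile scaling (-0.11) and by leaving out LPS replicate 1 (-0.14) or LPS+inhibitor replicate 2 (-0.024). In the CARD9 and calcineurin list 1 rose and 2 fell (median -0.11). Those that fell were *Nfatc2*, which fell by 1.60 (SE 0.21, adjusted p = 0.0296), and the kinase gene *Prkcd*, which fell by 0.56 (SE 0.09, adjusted p = 0.0401), a call lost in 9 of the 16 alternatives.

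Of the inhibitory receptors and phosphatases, 1 rose and 1 fell in LPS+inhibitor against LPS (median 0.06): *Inpp5d* rose by 0.53 (SE 0.08, adjusted p = 0.0388), a call lost in 10 of the 16 alternatives, and the SHP-1 phosphatase gene *Ptpn6* fell by 1.48 (SE 0.14, adjusted p = 0.0181). Of the other C-type lectins, *Clec4b1* alone of 33 passed, rising by 0.83 (SE 0.12, adjusted p = 0.0357; list median -0.22). That call was lost in 10 of the 16 alternatives, whichever array was left out among them, and the difference was 0.093 with the mean of the gene's probes (adjusted p = 0.911). Of the other Fc receptors 0 passed in limma (median -0.07). Among the further adaptor-paired receptors, 2 rose and 1 fell (median 0.54). *Cd300lb* rose by 3.98 (SE 0.23, adjusted p = 0.0119), *Treml4* by 2.92 (SE 0.28, adjusted p = 0.0194) with its LPS signal above background on 1 of 2 arrays, and *Pilrb1* fell by 1.78 (SE 0.14, adjusted p = 0.0150). The calls of *Cd300lb*, *Treml4* and *Pilrb1* were lost in 3, 5 and 6 of the 16 alternatives. The *Treml4* difference ranged from 1.52 to 3.27 over all alternatives.

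Of the 12 list calls picked by rule for LPS+inhibitor against LPS, 0 held without untreated replicate 1 or 2, 2 without LPS replicate 1, 3 without LPS replicate 2, 2 without LPS+inhibitor replicate 1 and 5 without LPS+inhibitor replicate 2. The highest adjusted p over the left-out arrays was 0.0561 for *Cd300lb* and 0.105 for *Syk*, whose call was lost each time and with the deposited log2 values (0.0569). With the replicate number as a block, the calls lost included those of *Lcp2* (adjusted p = 0.0620), *Vav3* (0.0590), *Nfatc2* (0.0609), *Prkcd* (0.0508), *Inpp5d* (0.0593) and *Clec4b1* (0.0553). The counts of list genes that rose and fell were 0 to 4 and 0 to 8 over the left-out arrays. Against untreated cells, 10 of the 104 list genes rose and 17 fell with LPS+inhibitor (median -0.12), where 6.16% of all gene names rose and 8.71% fell. Those counts were 2 to 6 and 5 to 12 when an array was left out, 2 and 8 without untreated replicate 1, 2 and 5 without untreated replicate 2, and 3 and 10 without LPS+inhibitor replicate 2.

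**Figure D4:**
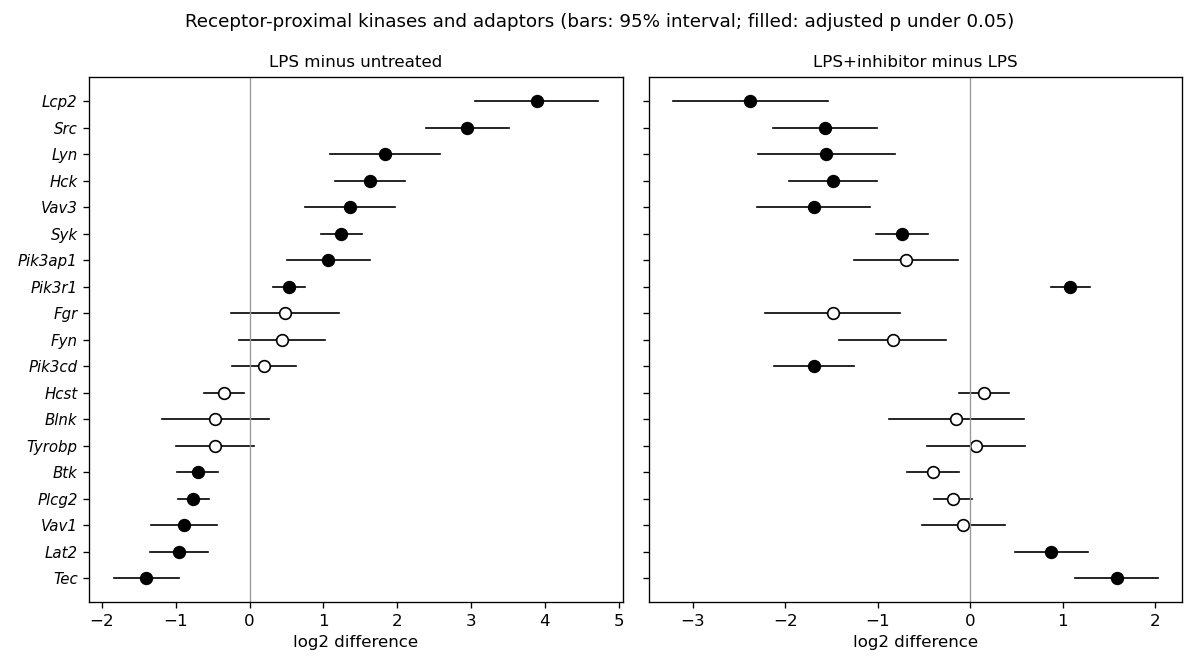
Log2 differences (x axis) of the 19 kinase and adaptor genes (y axis, ordered by the LPS difference) for LPS against untreated and for LPS+inhibitor against LPS, with 95% intervals as bars and filled circles for an adjusted p under 0.05. *Lcp2* lies at 3.89 in the first panel and -2.38 in the second, *Syk* at 1.24 and -0.74, and the untreated level of *Src* was not above background.

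The genes whose values on the 6 arrays were most like those of *Clec4e* and *Fcgr2b* were sought among 11659 named genes above background on every array, by the root-mean-square (RMS) difference of the centered log2 values. Nearest to *Clec4e* were *Mx2* (RMS 0.22), *Ifit1* (0.26), *Rsad2* (0.28), *Ccrl2* (0.32) and *Oasl1* (0.38), against 0.85 for the gene ranked 50. Nearest to *Fcgr2b* were *Il18* (RMS 0.08), *Syne2* (0.19), *Aim2* (0.23), *Glipr2* (0.24) and *Rab38* (0.25), against 0.37 for the gene ranked 50. *Il18*, the gene of an inflammasome-processed cytokine, had differences of 2.65 between LPS and untreated cells and -2.68 between LPS+inhibitor and LPS, beside 2.60 and -2.55 for *Fcgr2b*. Within the 9 receptor genes above background on every array, *Fcgr2b* was nearest to *Clec4e* (RMS 2.22) and *Fcgr4* nearest to *Fcgr2b* (RMS 0.71). The gene ranked 50 lay nearer than either of these. The RMS value describes likeness over 6 arrays only, and nothing about shared control was tested.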

How the data were processed

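Gene expression was measured on 6 arrays, 2 for each of untreated, LPS and LPS+inhibitor BMDMs. Per the file headers, the scanner files hold intensity values, background-subtracted within each array by Agilent Feature Extraction 10.7.3.1. The authors deposited log2 values, normalized between arrays, as a single table, and 0 or 1 flags per spot are of other kinds per the file headers. Here the processed intensity of non-control spots was put on the log2 scale and quantile-normalized, outlier spots (119 to 172 per array) were then set missing, and spots of a probe were averaged. A linear model of the 3 groups was fitted to 55680 probes with limma 3.58.1 in R 4.3.3 (package data.table, version 1.17.8), with 3 residual degrees of freedom, with Benjamini-Hochberg adjustment of the p values over all probes. Called means an adjusted p under 0.05. Probes were named through RefSeq accessions (26762 probes), symbols (3819) or synonyms (639), or kept the name supplied with the array (24461). Genes were counted by their brightest probe. The number of arrays limits the precision.

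The 10 genes and all lists were chosen with earlier results of these data known. Named by rule were the 10 genes, *Tnf*, *Il6*, *Usp7*, up to 3 called genes with the largest difference from each pathway list in LPS against untreated and in LPS+inhibitor against LPS, the gene with the brightest signal in each marker list, and the 5 genes most like *Clec4e* and *Fcgr2b*. *Syk*, *Tyrobp*, *Cd14*, *Itgam*, *Zbtb46*, *Pax5*, *Camp* and *Mpo* were named after their values were seen. Values of 1 gene picked by these rules and of 1 marker gene are not reported here. Alternatives were 75th percentile scaling, normexp background correction (offset 50), the deposited log2 values, leaving out dim probes, keeping outlier spots, a trended prior, a fit of only the 2 groups compared, a replicate block, leaving out each array, and the mean of a gene's probes. Setting outlier spots missing before normalization was added after seeing the data. The fit was tested on simulated data. Protein sequences were not analysed here.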

Additional observations from a re-analysis of the deposited data

How the results depend on the processing

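Of the 16 alternatives, 15 were planned and 1, setting outlier spots missing before normalization, was chosen after seeing the data and changed no call of the 10 genes. Over the 10 genes and 16 alternatives, direction and call were as reported in 135 of the values for LPS against untreated, 119 for LPS+inhibitor against LPS and 137 for LPS+inhibitor against untreated, a call was gained in 8, 19 and 2, lost in 12, 17 and 11, and the sign turned in 5, 5 and 10. Where an array was left out, the lone array of its group is assumed to vary like the other groups. Leaving out an array of the group not compared repeats the fit of the 2 groups compared. Those settings are therefore not separate checks, and calls lost in them do not show dependence on the array left out. Fewer arrays mean fewer residual degrees of freedom, and other causes were not tested. For the 10 genes, several settings could change the adjusted p but not the difference or its sign. These were leaving out dim probes, the trended prior, the fit of the 2 groups compared and the replicate block. The same holds for leaving out an array of the group not compared and, with 1 probe per gene, for the mean of a gene's probes.

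With 75th percentile scaling, 7 of the 10 genes rose and 0 fell with LPS (4 and 1 as reported), 4 fell in LPS+inhibitor against LPS (2 as reported), and 25 of the 104 list genes rose in each of LPS and LPS+inhibitor against untreated (15 and 10 as reported). Of all 34787 names, 12092 and 12134 rose there (2775 and 2144 as reported), so the share of list genes that rose was below that of all names with this scaling and above it as reported. The sign turned for *Fcer1g* (0.16) and *Fcgr4* (0.037) in LPS+inhibitor against untreated and for *Fcgr3* in LPS against untreated (0.33), LPS+inhibitor against LPS (-0.14) and LPS+inhibitor against untreated (0.19), and *Tyrobp* was at 0.13 with LPS and -0.11 in LPS+inhibitor against LPS. With normexp correction, *Fcgr3* was at 0.061, -0.018 and 0.043 in that order, 3 genes rose and 5 fell in LPS+inhibitor against LPS, list genes that fell with LPS numbered 29, those that rose and fell in LPS+inhibitor against LPS 17 and 19, and those that rose against untreated 17. With the deposited log2 values *Fcgr3* was at 0.074, -0.020 and 0.053, and 2 genes rose and 4 fell in LPS+inhibitor against LPS. With dim probes left out, so that fewer probes were tested, 2 genes rose and 5 fell in LPS+inhibitor against LPS, 15 list genes rose there and 17 against untreated. In the fit of the 2 groups compared, 0 of the 10 genes and 0 list genes rose or fell in LPS+inhibitor against LPS (0 of all names, limma; 8004 names and 9 of the 10 genes at an unadjusted p under 0.05), and against untreated 0 of the 10 genes fell and 6 list genes rose. With the mean of a gene's probes, *Usp7* was at 0.0019 in LPS+inhibitor against LPS, and *Siglech* at 0.19 with LPS and -0.51 in LPS+inhibitor against LPS.

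Leaving out each array in turn gave 2 to 4 genes that rose and 0 to 1 that fell with LPS, 0 to 1 and 0 to 2 in LPS+inhibitor against LPS, and 1 to 3 and 0 to 0 against untreated. List genes numbered 8 to 13 and 4 to 18, 0 to 4 and 0 to 8, and 2 to 6 and 5 to 12 in the same order. *Fcgr3* ranged from -0.23 to 0.14, from -0.17 to 0.20 and from -0.21 to 0.15, *Fcgr2b* from -0.36 to 0.47 and *Fcgr4* from -0.53 to 0.28 in LPS+inhibitor against untreated. In LPS+inhibitor against LPS, *Usp7* ranged from -0.30 to 0.026 and *Tyrobp* from -0.14 to 0.26.

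The labels number the arrays 1 and 2 in each group without saying that they pair, and every replicate 1 lay on one side of the slide and every replicate 2 on the other, so a replicate block is also a block of side. With the replicate block, 5 of the 10 genes rose and 2 fell with LPS (4 and 1 as reported), 2 rose and 3 fell in LPS+inhibitor against LPS (1 and 2 as reported), and 4 rose and 1 fell against untreated (3 and 1 as reported). The added genes were *Fcgr4*, which rose with LPS (adjusted p = 0.0207) and fell in LPS+inhibitor against LPS (0.0404), and *Clec4n*, which passed in all 3 comparisons (0.0373, 0.0367 and 0.0371). Deviations of replicate 1 from its group mean correlated across 20721 probes with r of 0.47 between untreated and LPS, 0.40 between untreated and LPS+inhibitor and 0.42 between LPS and LPS+inhibitor; probes are not independent replicates, and these values do not separate pairing from side. Of the 16 calls of list genes named for LPS and the 12 named for LPS+inhibitor against LPS, 15 and 10 held with 75th percentile scaling, 16 and 8 with the deposited log2 values, 15 and 0 in the fit of the 2 groups compared, and 16 and 5 with the block. Signal over background limited *Clec5a*, *Olr1*, *Src* and *Zbtb46* in untreated cells and *Pax5* in LPS cells, where only bounds of their folds are given. These bounds hold for the quantile-normalized signals: with normexp correction the log2 differences were 1.17, 3.40, 1.08 and 0.90 with LPS for the first 4 and 0.35 in LPS+inhibitor against LPS for *Pax5*, each short of its bound.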
